A study of Homo sapiens with 4 samples.

Results

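The epidermal growth factor receptor family and the genes around ERBB2 on chromosome 17 were examined for RNA recovered with IGF2BP3 in OE-19 cells. The 10 genes were listed by name, out of 20033 protein-coding genes in the GENCODE 44 annotation. No measured value served as a criterion, but the list was made with earlier results of these data known. They comprised the receptors EGFR, ERBB2 and ERBB3, and 7 neighbours of ERBB2 in band 17q12, namely GRB7, STARD3, PGAP3, MIEN1, CDK12, MED1 and FBXL20. A peak belonged to a gene when its summit, the base of highest signal, lay in an exon of that gene.

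OE-19 is an established line of adenocarcinoma of the esophagogastric junction, and it is known for amplification of the ERBB2 locus. The cells, grown in RPMI1640 with 10% fetal bovine serum, were lysed, and RNA was recovered with an anti-IGF2BP3 antibody and sequenced (RNA immunoprecipitation followed by sequencing, RIP-seq). The labels state that the cells were fixed with UV light before lysis, a step that the study's methods do not give for RIP. The series held 4 samples, of which 2 were IGF2BP3 RIP replicates and 2 were input samples with no antibody step. All 4 samples were of this one line under one condition, the labels do not say whether replicates were separate cultures, and input values were not analysed here.

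ERBB receptors are cell surface tyrosine kinases that pair after ligand binding and pass signals to the RAS-MAPK and PI3K-AKT pathways. EGFR binds EGF-like ligands, ERBB2 has no known soluble ligand and acts as a preferred partner, and ERBB3 binds neuregulins but has an impaired kinase domain. IGF2BP3 is a cytoplasmic RNA-binding protein that is described as a reader of N6-methyladenosine in mRNA, with the UGGAC sequence named for its sites.

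The deposited values were positions of peaks and, for each peak, a fold enrichment. As deposited by the authors, this fold compares RIP signal with the local background at the summit, as a ratio, and it is not an RNA level. Each peak also carried a p-value and a q-value, the q being the p corrected for multiple testing by the caller. Replicate 1 held 44622 peaks and replicate 2 held 42723 peaks, and read depth is unknown.

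The sites with the strongest signal in both replicates lay in coding exons, and their sequences are shown because the comparisons below turn on them. For each gene with peaks in both replicates, the pair of overlapping peaks in 1 coding exon with the highest mean log2 fold was taken, and for EGFR the best 2 pairs. Each sequence is the exonic part of the stretch covered by the pair, read from GRCh38 (hg38) on the mRNA strand and written as DNA, with GGAC in capitals. The sequence UGGAC is written as TGGAC in DNA letters. GGAC is the part of it that holds the candidate methylated adenosine, so each copy of the longer sequence contains the shorter one.
EGFR exon 27, chr7:55202527-55202625, plus strand: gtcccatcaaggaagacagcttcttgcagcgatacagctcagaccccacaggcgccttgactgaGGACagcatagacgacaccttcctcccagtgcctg
EGFR exon 21, chr7:55191753-55191874, plus strand: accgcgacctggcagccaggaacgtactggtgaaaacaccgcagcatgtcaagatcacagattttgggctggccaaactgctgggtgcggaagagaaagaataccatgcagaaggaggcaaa
ERBB3 exon 17, chr12:56095665-56095806, plus strand: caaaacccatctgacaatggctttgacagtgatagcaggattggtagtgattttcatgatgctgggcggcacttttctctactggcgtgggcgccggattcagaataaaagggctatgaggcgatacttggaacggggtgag
CDK12 exon 12, chr17:39524674-39524885, plus strand: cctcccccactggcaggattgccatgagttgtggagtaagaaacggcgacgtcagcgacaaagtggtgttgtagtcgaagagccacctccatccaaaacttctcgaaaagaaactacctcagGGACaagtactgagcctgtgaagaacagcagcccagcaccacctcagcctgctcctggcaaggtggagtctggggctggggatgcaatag
MED1 exon 14, chr17:39419717-39419903, minus strand: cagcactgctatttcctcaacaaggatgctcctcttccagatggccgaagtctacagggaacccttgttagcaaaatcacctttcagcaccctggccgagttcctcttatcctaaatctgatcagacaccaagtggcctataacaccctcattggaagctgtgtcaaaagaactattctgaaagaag
FBXL20 exon 9, chr17:39281389-39281463, minus strand: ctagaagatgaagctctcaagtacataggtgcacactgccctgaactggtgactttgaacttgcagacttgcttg

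Of these 6 sequences, only EGFR exon 27 and CDK12 exon 12 held GGAC, at 1 copy each, and neither copy was part of TGGAC. Their GC content ran from 46.5% in MED1 exon 14 to 57.6% in EGFR exon 27.

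To ask which of the genes had sites called as enriched in the IGF2BP3 RIP, exonic peaks were counted per gene and replicate. EGFR, ERBB3, CDK12, MED1 and FBXL20 had peaks in both replicates. STARD3 had peaks only in the list of replicate 2. ERBB2, GRB7, PGAP3 and MIEN1 had no peak in either replicate, and 0 summits fell anywhere in the bodies of these 4 genes, introns included. Thus 5 of the 10 genes had a peak in replicate 1 and 6 did in replicate 2, where the percentages of all protein-coding genes with a peak were 32.6% and 31.7%. A peak in both replicates was found for 5 of the 10 genes and for 28.0% of all protein-coding genes (5619 of 20033). With 10 genes in the list, these counts are descriptions and carry no test.

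Together the genes held 84 exonic peaks in replicate 1 and 76 in the other, on average 80.0 ± 5.66 (SD, n = 2). Their folds ran from 1.90 to 8.78 with a median of 3.07 in replicate 1, and from 1.90 to 6.52 with a median of 3.28 in replicate 2. The medians over all exonic peaks of protein-coding genes were 2.95 and 2.93. Few of these peaks passed the caller's correction. Those with a q of at most 0.05 numbered 13 of 84 and 7 of 76, or 15.5% and 9.21%, beside 10.2% and 7.81% of all exonic peaks of protein-coding genes, and the q was 1 in 44 and 41. The genes with at least 1 peak at a q of at most 0.05 in some replicate were EGFR, CDK12, MED1 and FBXL20, which is 4 of 10 beside 10.3% of all protein-coding genes. In both replicates they were EGFR, CDK12 and MED1, which is 3 of 10 beside 4.93%. ERBB3 and STARD3 had no peak at that limit.

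**Figure D1:**
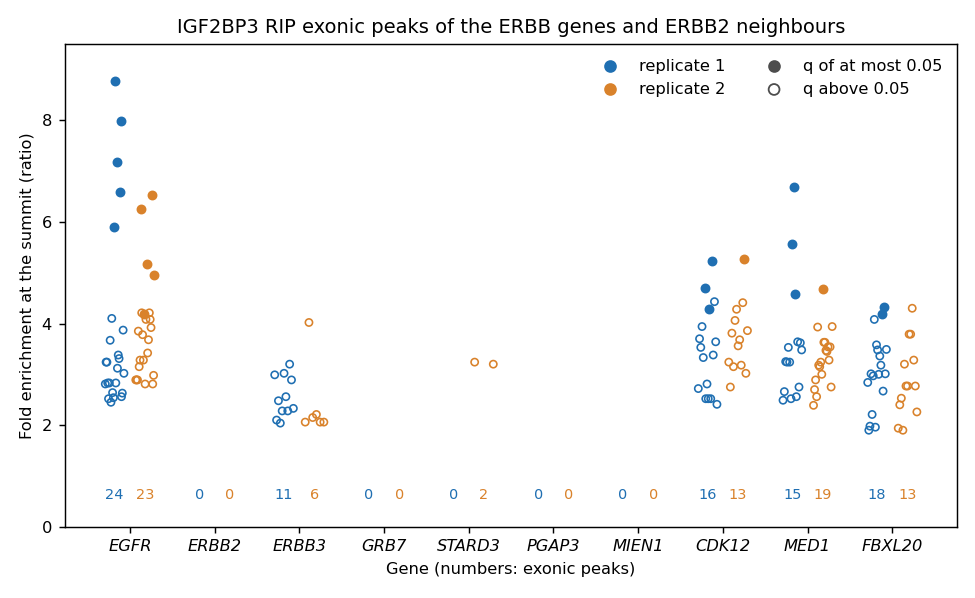
Fold enrichment (ratio, linear axis) of every exonic peak of the 10 genes in replicate 1 (blue) and replicate 2 (orange); filled points have a q of at most 0.05, and the numbers along the bottom are peaks per gene and replicate. EGFR holds the highest point in each replicate, at 8.78 and 6.52, and the columns of ERBB2, GRB7, PGAP3 and MIEN1 are empty.

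EGFR (ENSG00000146648.21, chr7:55019017-55211628, plus strand) had the most peaks of the 10 genes. Its canonical mRNA of 9905 nt and 28 exons held 24 exonic peaks in replicate 1 and 23 in replicate 2. Per kb of mRNA this was 2.42 and 2.32 peaks, or 2.37 ± 0.0714 (SD, n = 2), at percentile 84.2 among 5523 protein-coding genes with a peak in both replicates and a canonical coding transcript. The highest fold was 8.78 in replicate 1 and 6.52 in replicate 2, at percentiles 99.6 and 97.4 among the same genes. Both replicates therefore placed EGFR near the top for its highest fold and lower for density. A highest fold can rise with the number of peaks of a gene, which was not corrected for. The median fold of the EGFR peaks was 3.18 in replicate 1 and 3.78 in replicate 2, beside 2.95 and 2.93 over all exonic peaks.

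In EGFR a summit lay in 21 of 28 exons in each replicate, and 18 exons had one in both. The coding sequence held 21 summits in each replicate and the 3′ UTR held 3 and 2. Per kb this came to 5.78 coding summits in each replicate, compared with 0.499 and 0.333 in the 3′ UTR. Over all genes with peaks in both replicates the coding densities were 2.29 and 2.26 per kb, and the 3′ UTR densities were 0.494 and 0.450. By this count of summits EGFR lay above those genes in its coding sequence, and in its 3′ UTR it lay near them in replicate 1 and below them in replicate 2. The 21 coding summits of EGFR lay in 21 different exons in each replicate. Peaks have genomic coordinates, in which introns part the exons, so coding summits per kb also count exons. The part of exon number in the difference from other genes was not tested. A summit counts once however wide its peak is. The 3 EGFR peaks with a 3′ UTR summit in replicate 1 spanned 3688, 1100 and 38 nt, so few summits there do not mean a small covered length.

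The strongest site of EGFR by mean fold was exon 27, whose sequence is printed above. Its fold was 7.98 in replicate 1 (q = 1.36e-06) and 6.52 in replicate 2 (q = 0.000675), with summits 16 nt apart. Exon 21, in the part of the mRNA that encodes the kinase domain, had folds of 7.18 (q = 6.67e-06) and 5.18 (q = 0.0392). Exon 18 had folds of 5.89 (q = 0.000174) and 4.18 (q = 0.0294). These 3 exons carried a q of at most 0.05 in both replicates.

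Other EGFR sites had a q of at most 0.05 in 1 replicate only. Exon 19 had the highest fold of any peak of the 10 genes, 8.78 in replicate 1 (q = 5.03e-08), but 2.81 in replicate 2 (q = 1), with summits 15 nt apart. Exon 25 gave 6.58 (q = 6.27e-05) and 4.08 (q = 0.156). In exon 14 a peak of fold 6.25 (q = 0.000252) was listed in replicate 2, and no peak overlapped it in replicate 1. Exons 19 and 25 thus had a peak in both lists, but a q of at most 0.05 in 1 library only. The exon 14 peak itself rests on 1 library.

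The wide peaks of EGFR lay in its last exon. Besides those given above, a peak with its summit in the coding part of exon 28 spanned 3054 nt in replicate 2. A pair of overlapping peaks near the 3′ end of the mRNA had folds of 3.02 in replicate 1 (q = 0.944) and 4.95 in replicate 2 (q = 0.00844). The summits in exon 20 also lay on EGFR-AS1, an antisense transcript, and the lists carry no strand, so those peaks, of fold 2.83 and 4.08, cannot be assigned to 1 of the 2 genes.

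ERBB3 (ENSG00000065361.17, chr12:56076799-56103505, plus strand) also had peaks in both replicates, but fewer and weaker ones. Its mRNA of 5615 nt and 28 exons held 11 exonic peaks in replicate 1 and 6 in replicate 2. Per kb this was 1.96 and 1.07 peaks, or 1.51 ± 0.630 (SD, n = 2), and the spread between the replicates was the widest among the 5 genes with peaks in both. The highest fold was 3.20 in replicate 1 and 4.02 in replicate 2, at percentiles 31.9 and 67.2. No ERBB3 peak reached a q of 0.05.

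All 6 ERBB3 peaks of replicate 2 overlapped a peak of replicate 1, whereas 5 of the 11 peaks of replicate 1 (45.5%) overlapped one of replicate 2. Exon 17 had folds of 2.48 (q = 1) and 4.02 (q = 0.240). Exon 27 had folds of 3.20 (q = 0.173) and 2.15 (q = 1), with summits 1 nt apart. In exon 28 a coding pair had folds of 2.89 and 2.21 with summits 2 nt apart. Of the 6 ERBB3 pairs, 2 had summits within 10 nt and 5 within 100 nt, and the farthest were 535 nt apart, in the 3′ UTR. The shared ERBB3 sites were thus low in fold and mixed in how closely their summits lay, while exons 1, 20, 21, 22, 23 and 25 had a peak in replicate 1 alone.

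ERBB2 (ENSG00000141736.14, chr17:39687914-39730426, plus strand) had no peak in either replicate. Its mRNA of 4557 nt and 27 exons includes a coding sequence of 3768 nt, longer than that of EGFR, at 3633 nt. It held 7 copies of TGGAC (1.54 per kb) and 30 of GGAC, compared with 12 copies (1.21 per kb) and 37 in EGFR and 10 copies (1.78 per kb) and 26 in ERBB3. The receptor mRNAs therefore all contained the sequence, with or without peaks. RNA levels were not analysed here, so a missing peak from little RNA and one from little bound RNA cannot be told apart. A missing peak means that no site was called above the local background, and it does not show that the RNA was unbound.

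**Figure D2:**
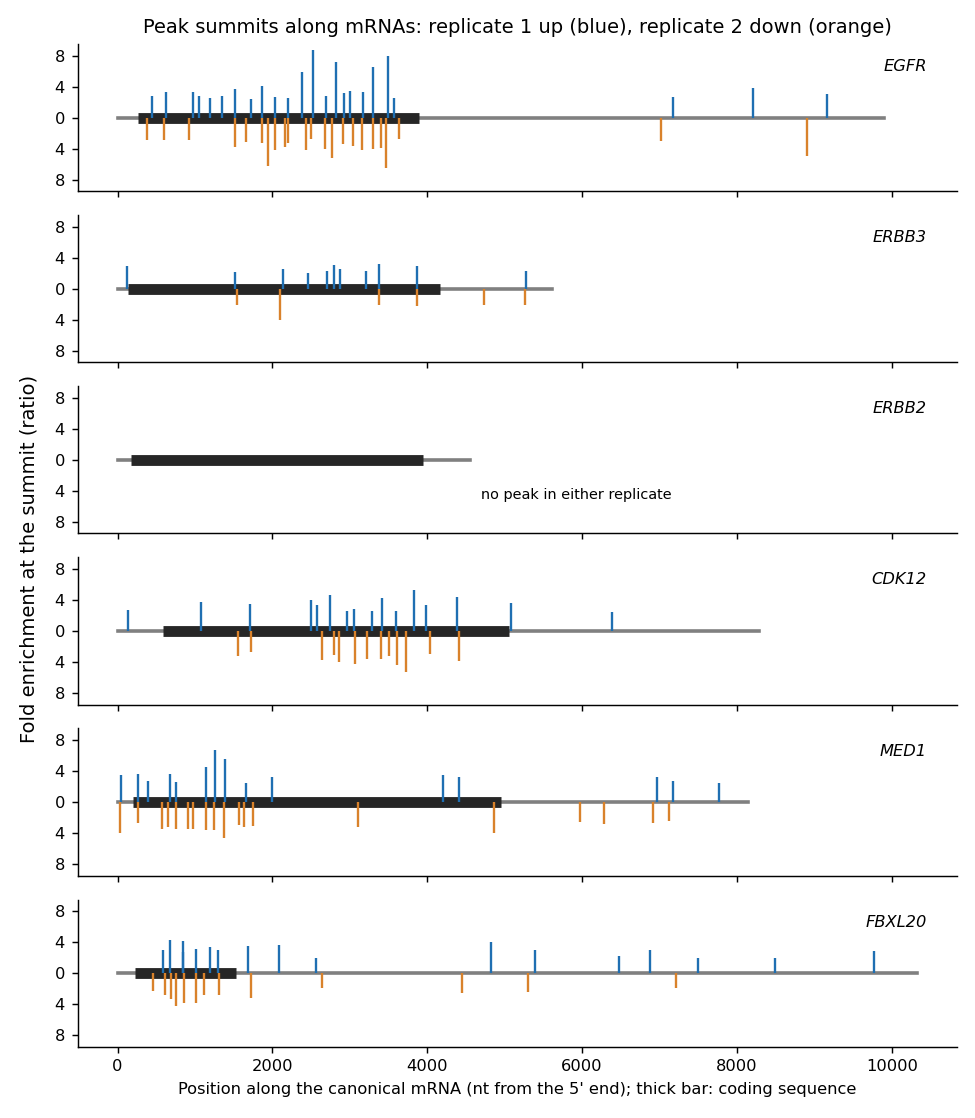
Summits along the canonical mRNAs of EGFR, ERBB3, ERBB2, CDK12, MED1 and FBXL20, with position in nt from the 5′ end on the horizontal axis and fold enrichment (ratio) as line height, replicate 1 upward in blue and replicate 2 downward in orange; the thick bar is the coding sequence. EGFR summits crowd its coding sequence of 3633 nt, FBXL20 summits fall in both a short coding sequence and a long 3′ UTR, and ERBB2 has none.

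The receptors could be compared exon by exon, since they share much of their exon structure. EGFR and ERBB2 had 17 exons of the same number and length. Of these, EGFR had a summit in 13 in replicate 1, in 12 in replicate 2 and in 11 in both, and ERBB2 had a summit in 0. EGFR and ERBB3 had 14 such exons, of which EGFR had a summit in 12 in each replicate and ERBB3 in 5 and 1.

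Exons 18 to 24, the stretch that encodes the EGFR kinase domain, were also read together. In EGFR all 7 of these exons had a summit in both replicates, with a median fold of 3.38 in replicate 1 and 4.08 in replicate 2. In ERBB2 the same 7 exons, also 885 nt in all, had none. In ERBB3 4 of them had a summit in replicate 1, with folds from 2.04 to 3.02, and 0 had one in replicate 2. The GC content of the stretch was 52.3% in EGFR, 56.8% in ERBB2 and 51.1% in ERBB3. ERBB3 thus lay nearer to EGFR in GC content than ERBB2 did, and its peaks in the stretch differed between the replicates. A part of GC content in this was not tested.

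In sequence, ERBB2 was nearer to EGFR than ERBB3 was. Each of the 7 exons had the same length in EGFR and ERBB2, and their identity, base by base without gaps, ran from 69.9% in exon 18 to 78.2% in exon 23. ERBB3 exon 18 was 3 nt shorter than that of EGFR, and in exons 19 to 24 its identity with EGFR ran from 49.5% to 67.3%. The stretch of exon 21 that was covered by peaks in EGFR is shown for the other 2 receptors at the same positions of the exon, so that it can be read against the EGFR sequence above, again with GGAC in capitals.
ERBB2 exon 21, chr17:39725083-39725204, plus strand: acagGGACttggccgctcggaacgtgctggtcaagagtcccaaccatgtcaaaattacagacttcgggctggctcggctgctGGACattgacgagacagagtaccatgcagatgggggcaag
ERBB3 exon 21, chr12:56097819-56097940, plus strand: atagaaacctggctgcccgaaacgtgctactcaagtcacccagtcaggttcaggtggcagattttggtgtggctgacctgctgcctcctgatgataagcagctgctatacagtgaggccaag

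Over these 122 nt, ERBB2 matched EGFR at 89 positions (73.0%) and ERBB3 did at 70 (57.4%). The ERBB2 stretch, without a peak, held 2 copies of GGAC, of which 1 was part of TGGAC. The EGFR stretch, with folds of 7.18 and 5.18, held 0, and so did the ERBB3 stretch, where replicate 1 had a peak of fold 2.28 (q = 1). In this exon the presence of a peak and of GGAC therefore went opposite ways between EGFR and ERBB2, which is a description of 1 exon.

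**Figure D3:**
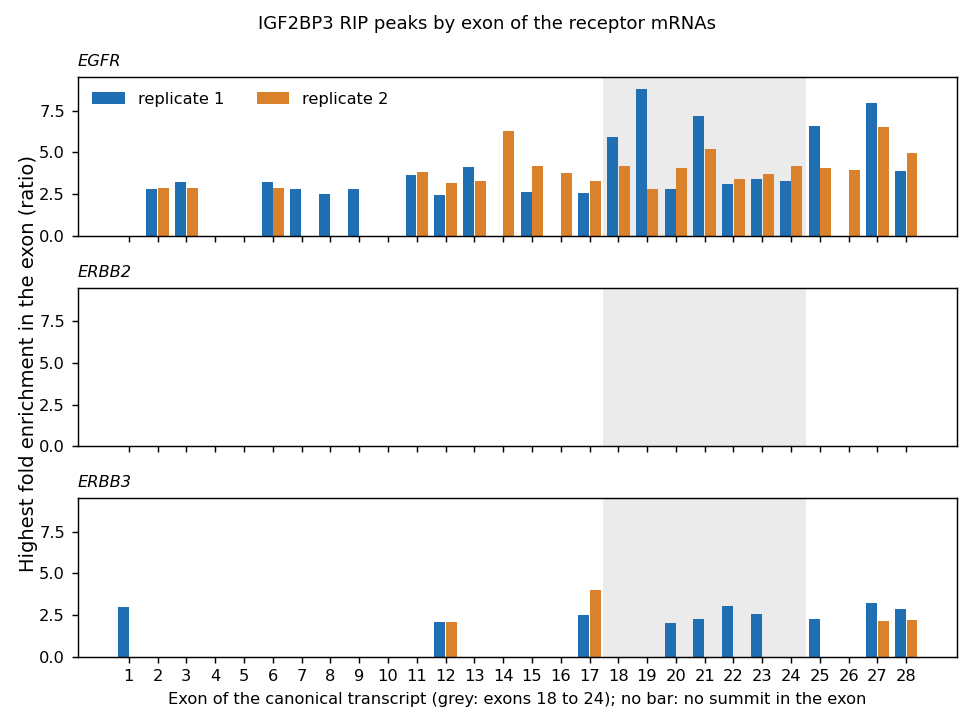
Highest fold enrichment (ratio, bars from 0) in each exon of EGFR, ERBB2 and ERBB3 in replicate 1 (blue) and replicate 2 (orange), by exon number of the canonical transcript; exons 18 to 24 are shaded and a missing bar means no summit. EGFR has bars from both replicates in all 7 shaded exons, ERBB3 has bars from replicate 1 in 4 of them, and ERBB2, with 27 exons, has no bar.

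The neighbours of ERBB2 fell into 2 blocks along the chromosome. FBXL20, MED1 and CDK12, on the centromere side of the locus, all had peaks in both replicates. From STARD3 through PGAP3, ERBB2 and MIEN1 to GRB7, the only peaks were the 2 of STARD3 in replicate 2. The interval from FBXL20 to GRB7 holds 12 protein-coding genes with 49 exonic peaks in replicate 1 and 47 in replicate 2. The 4 that were not in the list, NEUROD2, PPP1R1B, TCAP and PNMT, had 0 peaks in both replicates.

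Around ERBB2, replicate 1 had no peak of any kind for 225 kb, from chr17:39532765 in CDK12 to chr17:39757837 in IKZF3, a lymphoid transcription factor gene. This stretch holds 9 protein-coding genes from end to end. In replicate 2 the stretch was 106 kb, from chr17:39653694 in STARD3 to chr17:39759778 in IKZF3, with 6 protein-coding genes. The difference between the replicates was the pair of STARD3 peaks, and the right-hand ends lay in the same gene. Such a stretch was not particular to ERBB2. Beyond the IKZF3 peaks another one followed, counted in nt from the start of ERBB2. It ran from the summit at 73372 to that at 331976 in replicate 1, and from 71893 to 331900 in replicate 2. How often such stretches occur elsewhere was not counted.

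**Figure D4:**
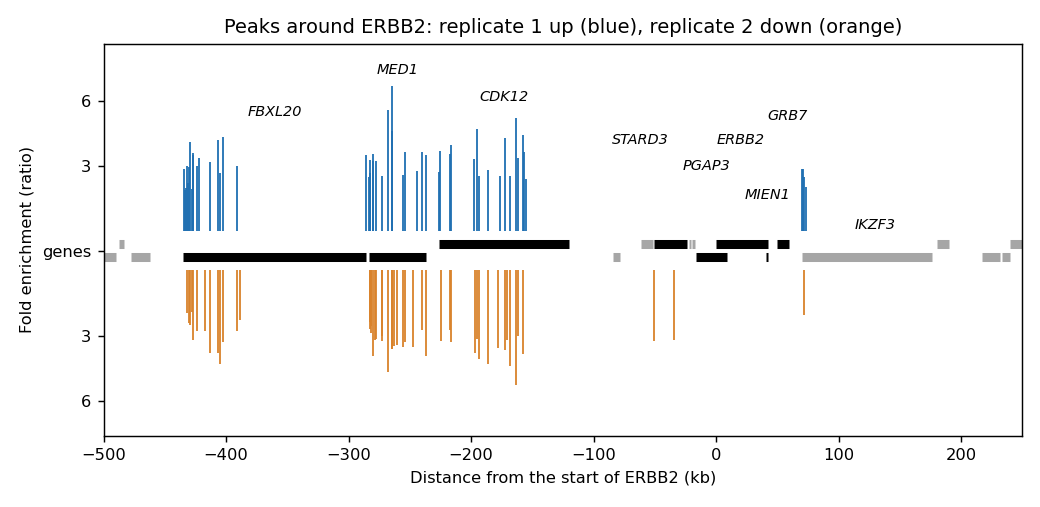
Peaks by distance from the start of ERBB2 (horizontal axis, kb), as lines of height equal to fold enrichment (ratio), replicate 1 upward in blue and replicate 2 downward in orange; bars in the middle are protein-coding genes, black for the listed ones and grey for others, with plus-strand genes above. Lines fill FBXL20, MED1 and CDK12, and the space from STARD3 to GRB7 holds only the 2 lines of STARD3 in replicate 2.

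CDK12 (ENSG00000167258.16, chr17:39461486-39567559, plus strand) encodes the kinase that, with cyclin K, phosphorylates the C-terminal domain of RNA polymerase II. Its mRNA of 8287 nt and 14 exons held 16 and 13 exonic peaks, or 1.75 ± 0.256 per kb (SD, n = 2). The highest fold was 5.22 in replicate 1 and 5.27 in replicate 2, both in exon 12 (q = 0.0211 and 0.00470), the site printed above, although the summits lay 105 nt apart. Of the 5 genes with peaks in both replicates, CDK12 was the only one whose highest peak lay in the same exon in each. Exon 4 of CDK12 gave 4.70 (q = 0.0105) and 3.15 (q = 1), and exon 9 gave 4.28 (q = 0.00543) and 3.68 (q = 0.435). A summit lay in 11 of the 14 exons in both replicates, and 13 coding summits were found in each.

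MED1 (ENSG00000125686.12, chr17:39404285-39451272, minus strand) encodes a subunit of Mediator, the complex that links transcription factors to RNA polymerase II. Its mRNA of 8137 nt and 17 exons held 15 and 19 exonic peaks, or 2.09 ± 0.348 per kb (SD, n = 2). The highest fold was 6.68 in replicate 1, in exon 13 (q = 7.91e-06), where replicate 2 had 3.63 (q = 0.649). In replicate 2 the highest was 4.68, in exon 14 (q = 0.0294), where replicate 1 had 5.56 (q = 0.00175). Exon 12 gave 4.58 (q = 0.00356) and 3.63 (q = 0.649). The strong MED1 sites thus lay in 3 adjacent exons, of which exon 14 had a q of at most 0.05 in both replicates. MED1 was also the only one of the genes with a 5′ UTR pair, in exon 1, with folds of 3.48 and 3.94 and summits 5 nt apart. Of its 4 summits in the 3′ UTR in replicate 2, 2 also lay on the unnamed gene ENSG00000266469.

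FBXL20 (ENSG00000108306.13, chr17:39252663-39402523, minus strand) encodes an F-box protein, the substrate-binding part of an SCF ubiquitin ligase. Its mRNA is the longest of the 10, at 10332 nt, with a coding sequence of 1311 nt in 15 exons. It held 18 and 13 exonic peaks, or 1.5 ± 0.342 per kb (SD, n = 2). Exon 7 gave folds of 4.32 (q = 0.00282) and 3.28 (q = 0.108), and exon 9 gave 4.18 (q = 0.0211) and 3.79 (q = 0.108). The highest fold of replicate 2 was 4.30 in exon 8 (q = 0.0864). Replicate 1 had a peak of fold 2.67 (q = 1) in the same exon, which ended next to it without overlap, and their summits were 89 nt apart.

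FBXL20 differed from the other genes in how its summits were spread. It held 10 summits in the 3′ UTR in replicate 1 and 5 in replicate 2, more than in any other of the genes, and 7 and 8 in the coding sequence. Per kb, however, the coding densities were 5.34 and 6.10, and those of the 3′ UTR were 1.14 and 0.568. Its coding density was thus below that of EGFR in replicate 1, at 5.34 against 5.78, and above it in replicate 2, at 6.10 against 5.78. As in EGFR, each coding summit of FBXL20 lay in an exon of its own, so this density also counts exons. CDK12 had 2.91 coding summits per kb in each replicate, MED1 had 2.32 and 2.95, and ERBB3 had 2.23 and 0.993. In replicate 1, 1 FBXL20 summit of fold 3.49 lay in an exon outside the canonical transcript.

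STARD3 (ENSG00000131748.16, chr17:39637090-39664201, plus strand) encodes a sterol transfer protein of late endosomes. Replicate 2 listed a peak of fold 3.24 in the 5′ UTR in exon 1 and one of fold 3.20 in the coding sequence in exon 2, both with a q of 1, and replicate 1 listed none. The other 3 neighbours without peaks were GRB7 (ENSG00000141738.14, chr17:39737927-39747291, plus strand), an adaptor that binds ERBB2, PGAP3 (ENSG00000161395.14, chr17:39671122-39696797, minus strand), which remodels GPI anchors, and MIEN1 (ENSG00000141741.12, chr17:39728496-39730532, minus strand), a small membrane-associated protein. Their mRNAs are 2233, 2687 and 1397 nt long and that of STARD3 is 2770 nt. Each contained TGGAC, at 2.24 per kb in GRB7, 1.49 in PGAP3, 2.15 in MIEN1 and 1.44 in STARD3. In CDK12, MED1 and FBXL20, which had peaks, the densities were lower, at 0.965, 0.983 and 0.484 per kb. The other genes with peaks in both replicates did not all follow this. EGFR held 1.21 per kb, and ERBB3 held 1.78, above PGAP3 and STARD3. These genes also differ in GC content, as given below.

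The order of the 5 genes by highest fold was similar in the replicates. In replicate 1 it was EGFR, MED1, CDK12, FBXL20 and ERBB3, and in replicate 2 it was EGFR, CDK12, MED1, FBXL20 and ERBB3. The values of MED1, 6.68 and 4.68, spanned those of CDK12 and reached into those of EGFR, so neighbours in the top 3 did not separate beyond their spread. CDK12 at 5.22 and 5.27 lay above FBXL20 at 4.32 and 4.30, which lay above ERBB3 at 3.20 and 4.02, without overlap. By median fold the order in replicate 1 was CDK12 (3.46), MED1 (3.25), EGFR (3.18), FBXL20 (3.01) and ERBB3 (2.48). In replicate 2 it was EGFR (3.78), CDK12 (3.68), MED1 (3.28), FBXL20 (2.77) and ERBB3 (2.10). The order by highest fold thus depends on single peaks, and EGFR led by median in replicate 2 only. No test was run between genes.

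To ask how far the replicates gave the same sites, overlaps were counted. Of the peaks of the 10 genes, 58 of 84 in replicate 1 (69.0%) and 58 of 76 in replicate 2 (76.3%) overlapped a peak of the other replicate by at least 1 bp, a mean of 72.7% ± 5.14 (SD, n = 2). Over all exonic peaks of protein-coding genes the percentages were 61.0% and 64.8%. EGFR had the highest share of the genes in replicate 1, with 21 of 24 (87.5%), and 21 of 23 (91.3%) in replicate 2. CDK12 had 75.0% and 84.6%, MED1 had 73.3% and 63.2%, and FBXL20 had 9 of 18 peaks in replicate 1 and 61.5% in replicate 2. The share of ERBB3 depended on the replicate, as given above, and that of STARD3 was 0 of 2.

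The overlapping peaks formed 60 pairs, and their summits lay a median of 23 nt apart, with 48 pairs within 100 nt and 17 within 10 nt. The fold was higher in replicate 1 in 36 pairs and in replicate 2 in 24. Spearman's rho of the folds was 0.349 over the 60 pairs, which come from the same 2 libraries and are not independent. By gene it ran from -0.182 over 11 pairs in CDK12 to 0.708 over 6 pairs in ERBB3. The pairs were formed by overlap, which by itself keeps their summits near each other, and peaks without a partner are not among them. A q of at most 0.05 in both replicates was found in 5 pairs, those in EGFR exons 18, 21 and 27, CDK12 exon 12 and MED1 exon 14.

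By region, 61 summits of the genes lay in coding sequence in each replicate. The 5′ UTRs held 3 and 2, and the 3′ UTRs held 19 and 13. The coding share was 76.9% ± 4.79 (SD, n = 2), beside 77.3% and 78.7% of all mRNA summits. The share of the genes as a group was thus near that of all summits. EGFR and CDK12 lay above the share of all summits in each replicate, and MED1 and FBXL20 lay below it.

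The sequence around the summits was then searched. In windows that reached 50 nt to either side of the summit, TGGAC was found in 10 of 83 windows of the genes in replicate 1 (12%) and in 11 of 76 in replicate 2 (14.5%), and in 12.8% and 12.9% of the windows of all mRNA summits. GGAC was found in 34.9% and 40.8% of their windows, and in 32.0% of all windows in each replicate. The median GC content of the windows was 49.5% and 47.5%, beside 48.5% and 47.5% over all. Such matches describe letters in a window and do not show that a base was methylated.

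The genes with and without peaks differed in length and in GC content. The 5 with a peak in both replicates had mRNAs of 5615 to 10332 nt with a GC content of 44% to 51.3%. The other 5 had mRNAs of 1397 to 4557 nt with 54.4% to 60.4%, so the groups did not overlap in either of these properties. In number of exons they did overlap, at 14 to 28 in the first group and 4 to 27 in the other. The medians over 19688 protein-coding genes with a canonical coding transcript were 2900 nt and 49.1%.

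Across all genes length, GC content and number of exons each moved with the share of genes that had a peak in both replicates. From the lowest to the highest 20% of genes by GC content, the share was 39.5%, 34.7%, 29.6%, 21.7% and 14.8%. From the shortest to the longest 20% of mRNAs it was 3.91%, 12%, 25.3%, 44% and 55.0%. EGFR, ERBB3, CDK12, MED1 and FBXL20 all lay in the longest class, and ERBB2, GRB7, STARD3 and PGAP3 all lay in the class of highest GC content. From the fewest to the most exons the share rose from 8.25% to 51.4%. By that property ERBB2 lay in the highest class together with EGFR, ERBB3 and MED1. GRB7 and STARD3 shared a class with CDK12 and FBXL20.

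Genes of the same class in both length and GC content gave a closer reference. For EGFR and ERBB3, 55.3% of 844 such genes had a peak in both replicates, and for CDK12, MED1 and FBXL20 58.9% of 965 did. For ERBB2 the share was 34.2% of 619, for STARD3 and PGAP3 17.7% of 876, for GRB7 6.75% of 1081 and for MIEN1 4.31% of 998. Of the genes without a peak, ERBB2 was thus the one whose class most often had peaks. The part of length, GC content, number of exons and RNA level in the presence of peaks was not tested.

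**Figure D5:**
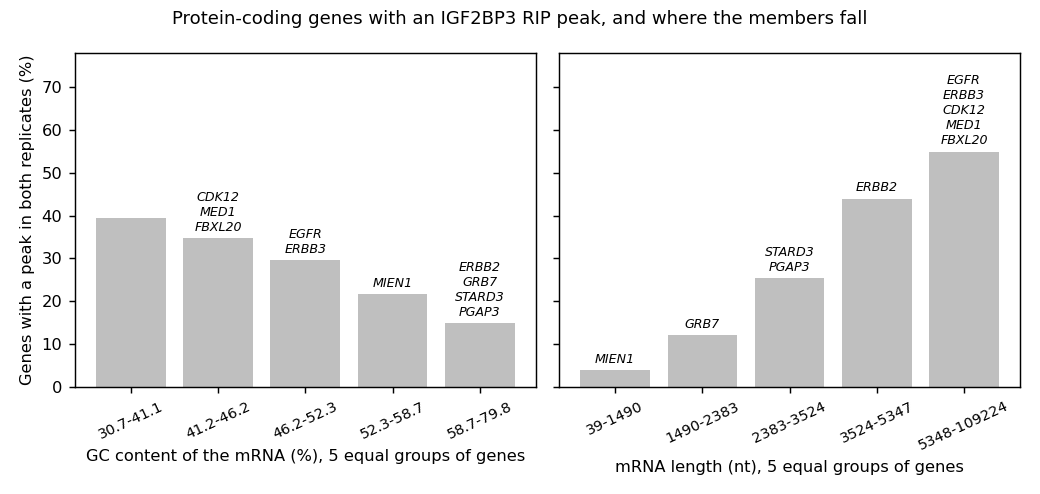
Percentage of protein-coding genes with a peak in both replicates (vertical axis, bars from 0) in 5 classes of equal size by GC content of the mRNA (left) and by mRNA length (right), with the 10 genes written above the class they fall in. The bars fall from 39.5% to 14.8% with GC content and rise from 3.91% to 55.0% with length, and all 5 genes with peaks in both replicates stand over the longest class.

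Other genes of the ERBB pathway were described from lists of named genes, also chosen with earlier results of these data known. ERBB4, the remaining receptor of the family, had 17 exonic peaks in replicate 1 and 16 in replicate 2, with 14 in the coding sequence in each and highest folds of 4.72 and 3.04. Per kb of mRNA this was 1.41 and 1.32 peaks, below EGFR in both replicates. With ERBB4 counted, 3 of the 4 receptors had peaks in both replicates, beside 28.0% of all protein-coding genes, and ERBB2 had none. ERBB4, at 12097 nt, lay with EGFR and ERBB3 in the longest class, where 55.0% of genes had peaks in both. In the class of ERBB2 by length and GC content the share was 34.2%, so most genes there also lacked them.

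Among 11 ligand genes, 1 had a peak in both replicates, which is 9.09% beside the 28.0% of all genes. This was TGFA, a ligand of EGFR, with 5 and 3 peaks and highest folds of 3.67 and 3.95. AREG had 1 peak in replicate 2, and the other 9, EGF and the neuregulins among them, had none.

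Adaptors and effectors downstream of the receptors made up the next list. Of 25 such genes, 18 (72.0%) had a peak in each replicate and 3 had none, beside 28.0% of all protein-coding genes and 55.0% of those in the longest class of mRNAs. The 3 with the most peaks were MTOR, a growth kinase, with 38 and 37, BRAF, a kinase of the MAPK pathway, with 26 and 21, and SOS1, an exchange factor for RAS, with 23 and 21. Of 15 genes that act in receptor turnover and feedback, 10 (66.7%) had a peak in both. The most were found in the ubiquitin ligases CBLB, with 22 in each replicate, and CBL, with 21 and 18, and in the deubiquitinase USP8, with 18 in each.

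The partners of CDK12 and MED1 were described in the same way. CCNK, which encodes cyclin K, had 9 peaks in each replicate with highest folds of 6.66 and 5.51, and CDK13, the closest relative of CDK12, had 8 and 6. Of 29 Mediator subunits other than MED1, 14 (48.3%) had peaks in both lists, beside 28.0% of all protein-coding genes, and 10 had none. MED13 had 30 and 32 peaks, MED14 had 31 and 28, and MED12 had 28 and 29, each more than the 15 and 19 of MED1. The 9 genes named from these 3 lists, MTOR, BRAF, SOS1, CBLB, CBL, USP8, MED13, MED14 and MED12, all fell in the longest class of mRNAs. Whether the lists differ from genes of like length was not tested. Members of 1 complex thus ranged from no peak to about 30.

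Markers of epithelial and other cell types were also read. TJP1, CDH1 and MUC1 had peaks in both replicates, which is 3 of 8 (37.5%) beside 28.0% of all protein-coding genes. EPCAM, KRT8, KRT18, KRT19 and CLDN4 had none. With so few genes and a share near that of all genes, this gives no check of the labelled cell type. Of 6 markers of other cell types, none had a peak in both replicates, and COL1A1 had 5 peaks in replicate 2 alone. Peaks are not expression levels, so the missing markers say nothing of whether these genes were expressed.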

How the data were processed

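RIP-seq of IGF2BP3 was analysed from the peak lists of both RIP replicates, with groups and replicate numbers taken from sample titles. The study's methods state that the authors mapped reads to hg38 with Tophat2 and called peaks with MACS2, both at default settings, whereas the submitters' processing notes list fastp, HISAT2 and MACS2. Versions, the peak limit and the control library are not given in the sources used here. The authors deposited for each peak a score, a fold enrichment (ratio), a −log10 p-value and a −log10 q-value. The −log10 p began at 2.0003 in the list of replicate 1 and at 2.0023 in that of replicate 2. The values fall on steps, and the median −log10 p was 3.22608 in both lists. Lists were made per sample and not from pooled samples. Depth is unknown, so no counting interval was given.

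Summits were assigned to exons of GENCODE 44 without strand, and to regions of canonical transcripts, in GRCh38. Coordinates count the first base as 1, and 13 and 12 peaks on scaffolds were left out. Background percentages were taken over all protein-coding genes, and percentiles over the 5523 with a peak in both replicates and a canonical coding transcript. No test between groups was made, since input values were not analysed here, and values are described by their mean ± SD over replicates. All 10 genes were named, and per list the 3 genes with the most peaks among those with peaks in both replicates. Other genes are named where a count is small, chosen after their values were seen. A rule to name the 3 genes most like ERBB2 could not be applied because ERBB2 had no peak. Alternatives were limits of q at 0.05, p at 1e-05 and fold of at least 5, other gene assignments, overlap rules, transcripts and windows, and leaving out each replicate. The members and lists were chosen with earlier results of these data known. Densities by region, classes by GC content, length and number of exons, and the exon comparison of the receptors were chosen after seeing the data. The assignment of positions was checked on simulated positions with known answers, and the 8 printed sequences were checked against hg38. The software was Python 3.11.15 with pandas 2.3.3, numpy 2.4.6 and matplotlib 3.10.9.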

Additional observations from a re-analysis of the deposited data

Results flagged for a closer look

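Peaks whose summits lay in introns were outside the comparisons above, and no peak list of a control sample was used. EGFR had a peak in intron 20 in each replicate, of fold 2.30 in replicate 1 and 2.49 in replicate 2, both with a q of 1. Their summits were 1 nt apart and lay 2852 and 2853 nt from the nearest exon. A peak of fold 2.21 in intron 19, found in replicate 1 alone, lay 855 nt from an exon and had a q of 1. The remaining 2 lay at exon edges and overlapped a peak of the other replicate. These were an EGFR peak of fold 4.37 in replicate 1, whose summit was 2 nt from exon 26 (q = 0.115), and a CDK12 peak of fold 3.28 in replicate 2, whose summit in intron 2 was 6 nt from an exon (q = 0.108).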

How the results depend on the processing

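Of 59 alternative values, 41 stayed within 1.5 times the count or within 1 SD, and 18 moved. With peaks at a q of at most 0.05, a p of at most 1e-05 or a fold of at least 5, fewer peaks were left by construction. Genes with a peak in both replicates then numbered 3, 4 and 2, and the mean number of exonic peaks fell from 80.0 to 10, 16 and 6. Under the same 3 limits the overlapping share was 54.9%, 44.4% and 56.2%, and the coding share was 92.9%, 97.2% and 100%. The overlapping share was 53.3% when at least 50% of both peaks had to overlap and 65.2% for summits within 100 bp. With the longest coding transcript the coding share was 84.2%. Windows with TGGAC, 13.3% on average, were 7.69% at the q limit, 6.25% at the fold limit, 6.96% with windows reaching 25 nt to either side and 23.3% with 100 nt. The cause of these shifts in shares was not tested, other than that stricter limits leave few peaks and wider windows hold more sequence. Leaving out either replicate moved none of these values past those limits. For values judged by the SD this outcome was fixed in advance, since each of 2 values lies within 1 SD of their mean. Those cases among the 41 therefore say nothing of stability. The highest folds of EGFR and ERBB3 ranged from 6.52 to 8.78 and from 3.20 to 4.02. No highest fold of ERBB2 could be given under any alternative, since no summit lay in its gene body. No paired analysis was possible because the inputs were not analysed here and no result came from a test between groups. Unknown depth limits every statement on a missing peak.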
